A study of Arabidopsis thaliana with 20 samples.

Results

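The small subunit of Rubisco and the enzymes of the Calvin cycle were followed here through 10 nuclear Arabidopsis genes, chosen by their identifiers out of 30613 expression features. These were the small subunit genes RBCS1A (AT1G67090), RBCS1B (AT5G38430), RBCS2B (AT5G38420) and RBCS3B (AT5G38410), the Rubisco activase gene RCA (AT2G39730), the glyceraldehyde-3-phosphate dehydrogenase genes GAPA (AT3G26650) and GAPB (AT1G42970), the fructose-bisphosphate aldolase gene FBA2 (AT4G38970), the sedoheptulose-bisphosphatase gene SBPASE (AT3G55800) and the phosphoribulokinase gene PRK (AT1G32060). Of 2291 peaks of N6-methyladenosine (m6A), 2 lay in these genes, 1 on RBCS3B and 1 on PRK. The measurements came from chromatin-associated RNA of whole 10-day-old seedlings kept in 16 h of light and 8 h of dark, profiled by MeRIP-seq, where RNA fragments that carry m6A are pulled down with an antibody.

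All lines were in the Col-0 background, and 4 of the 5 genotypes overexpressed human ALKBH5, an enzyme that removes m6A from RNA. The del-cIDR line carried ALKBH5 without its C-terminal intrinsically disordered region, and a matching line carried the same shortened protein with the H204A change that inactivates it (inactive del-cIDR). The other lines carried the full-length protein (FL) and the full-length protein with H204A (inactive FL), and untransformed Col-0 was the wild type. Each genotype had 2 input libraries, which give the RNA level, and 2 immunoprecipitated (IP) libraries, which give the m6A level. The labels give neither the promoter of the transgene nor the number of independent lines, and they name a growth chamber or a growth room without saying which held which genotype. A line, its transgene insertion and its place of growth therefore cannot be told apart. Nothing says that the 2 libraries of a genotype came from separate plantings, so a p-value here covers just the scatter of 2 such libraries, possibly technical.

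The Calvin cycle fixes carbon dioxide in the chloroplast stroma. Rubisco adds it to ribulose-1,5-bisphosphate, the phosphorylated product is reduced to triose phosphate with the NADPH and ATP of the light reactions, and the remaining enzymes rebuild the acceptor sugar. Rubisco holds large subunits made from plastid genes and small subunits made from nuclear genes, and leaf mesophyll is the main site of these transcripts, many of which are raised by light. In whole seedlings, fewer mesophyll cells and less of these RNAs per cell cannot be told apart.

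The expression table holds a deposited signal per gene. It is not a count, not divided by gene length, and its depth is unknown. The 45 ERCC spike-in controls sum to nearly the same value in each library, between 109313 and 110569, while the typical gene does not stay level: relative to Col-0 the median of all features moved by 0.56 on the log2 scale in del-cIDR, 0.31 in inactive del-cIDR, 0.67 in FL and 0.22 in inactive FL. Fold changes below are on the log2(signal + 6.94) scale as deposited, with that median beside them, and a change was called at a limma adjusted p under 0.05 over all features.

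The summed signal of the 10 genes set both del-cIDR lines apart from the FL lines and Col-0. This sum was higher in both del-cIDR lines and highest in inactive del-cIDR, and RCA was its largest part in each genotype. Single genes differed. In del-cIDR the RBCS1B signal was below the FL lines and Col-0, and RBCS2B was not called different from Col-0. Summed over the 10 genes, the signal was 60163 and 61238 in del-cIDR seedlings, 92867 and 94037 in inactive del-cIDR, 35209 and 34091 in FL, 34802 and 37086 in inactive FL, and 33342 and 32834 in Col-0. The sums of the 2 del-cIDR genotypes did not overlap with each other or with any other genotype.

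**Figure D1:**
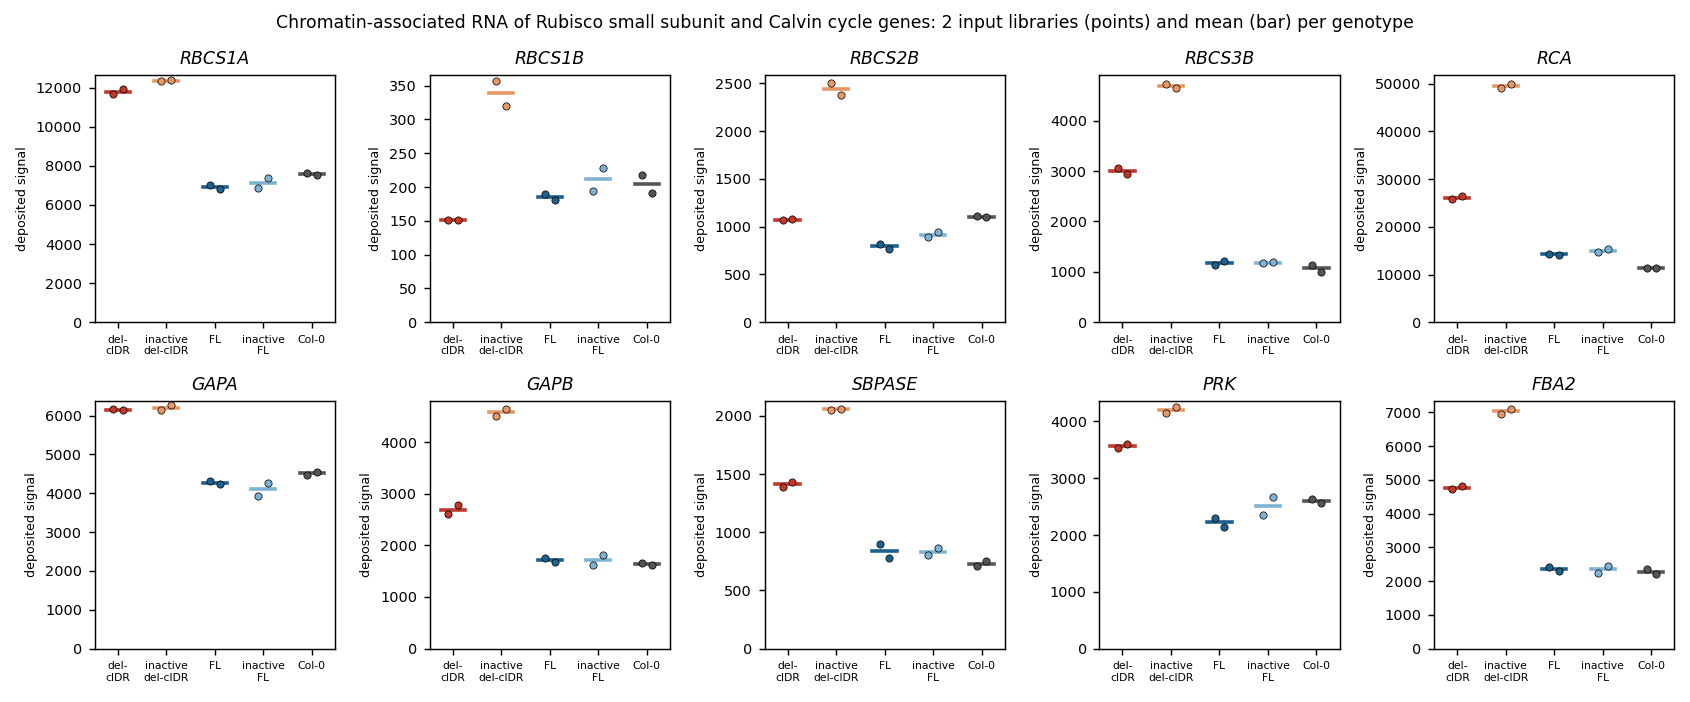
Deposited expression signal (y axis, from 0) of the 10 genes in the 2 input libraries of each genotype, shown as points with the mean as a bar. The inactive del-cIDR libraries are at or near the top in all 10 panels, and only for RBCS1B do the del-cIDR libraries lie below all others.

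Against Col-0, inactive del-cIDR had 10 of 10 genes called higher, where 32.4% of all features were called higher and 7.84% lower. Their median log2 fold change was 1.31, against 0.31 over all features. In del-cIDR 8 genes were called higher and 1 lower, beside a background in which 65.5% of features were called higher and 1.85% lower, so that the count of higher genes is near the background and the sizes say more. The median of the 10 genes was 0.67 there, against 0.56 over all features. FL had 3 genes called higher and 3 lower, with 75.5% of features called higher and 1.47% lower, and inactive FL had 2 higher and 2 lower, with 16.9% called higher and 3.12% lower. The medians of the 10 genes were −0.02 in FL and 0.05 in inactive FL. These 4 comparisons share the Col-0 libraries.

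How the FL lines compare with Col-0 depends on the scaling. With each library centred on its median feature, all 10 genes were called lower in FL than in Col-0 (38.9% of all features) and 6 in inactive FL (17.8%). The median log2 fold change over all features was then −0.06 in del-cIDR, −0.07 in inactive del-cIDR, −0.17 in FL and −0.07 in inactive FL. Small negative values on this scale are therefore near the typical feature. On that scale 9 genes were called higher in inactive del-cIDR, where 11.2% of features were, the exception being GAPA (0.08, adjusted p = 0.44). In del-cIDR 4 were called higher (RBCS3B, RCA, SBPASE and FBA2, with 8.13% of features) and 2 lower (RBCS1B and RBCS2B, with 21.1%). A centring on well-expressed features, chosen after seeing the data, called 10 genes lower in FL (16.6% of features), 1 higher and 4 lower in inactive FL (9.59% and 9.46%), 10 higher in inactive del-cIDR (18.6%), and 6 higher and 2 lower in del-cIDR (16.4% and 12.6%). The smaller FL calls also depended on other settings. Without a trend in the prior variance 2 genes were called in FL and 1 in inactive FL. After division by the m6A spike-in 1 was called in FL and 0 in inactive FL. The share of all features called under these settings was not computed, so a general loss of calls cannot be told from a loss in these genes. The m6A spike-in signal itself was 80196 and 79342 in the Col-0 input libraries and 98473 and 82508 in those of inactive FL. On the deposited and both centred scales alike, RBCS3B, RCA, SBPASE and FBA2 were called higher and RBCS1B lower in del-cIDR, and 9 genes (all but GAPA) were called higher in inactive del-cIDR. In the FL lines the calls common to the 3 scales were all lower than Col-0, for RBCS1A, RBCS2B and PRK in FL and for RBCS2B and GAPA in inactive FL.

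**Figure D2:**
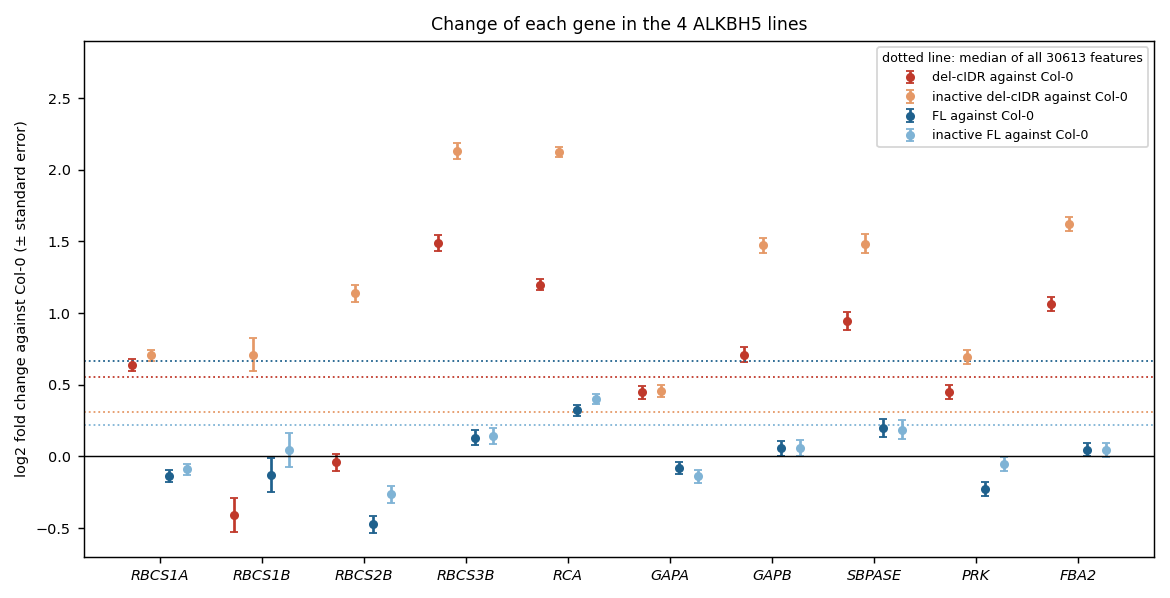
Log2 fold change of each gene against Col-0 (y axis, ± standard error from limma) in del-cIDR, inactive del-cIDR, FL and inactive FL, with dotted lines at the median of all features in the same colours. The FL points lie below the FL median line for all 10 genes, and the inactive del-cIDR points lie above theirs.

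RBCS1A encodes the small subunit with the highest signal per kilobase of gene span among the 4 in every genotype, at 7811 in del-cIDR, 8185 in inactive del-cIDR, 4570.0 in FL, 4719 in inactive FL and 5020.5 in Col-0. Its deposited signal was 11679 and 11911 in del-cIDR seedlings, 12328 and 12391 in inactive del-cIDR, 7010.0 and 6791 in FL, 6855 and 7396.5 in inactive FL, and 7639 and 7522.5 in Col-0. Both del-cIDR genotypes stood well above the other 6 libraries, and the FL and inactive FL libraries overlapped. RBCS1A was higher than in Col-0 by 0.64 ± 0.04 (SE) in del-cIDR (limma adjusted p = 6.73e-20) and by 0.70 ± 0.04 in inactive del-cIDR (limma adjusted p = 8.87e-22), and median-centring brought the first of these to 0.02 (adjusted p = 0.866). Active and inactive del-cIDR were not called different (limma adjusted p = 0.204), although their libraries did not overlap. In FL it was lower than in Col-0 by 0.14 (log2 fold change −0.14 ± 0.04, limma adjusted p = 0.00233), a call that ended when the signal was divided by the unmodified spike-in (adjusted p = 0.192) or the m6A spike-in (adjusted p = 0.32), or without a trend in the prior variance (adjusted p = 0.167).

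RBCS1B, RBCS2B and RBCS3B lie side by side on chromosome 5 and are near-identical in their coding part. How the counting treated reads that match more than 1 of them is not given in the sources used here, and nor is its strand setting, so each value is uncertain to the extent that reads were shared. RBCS3B had the largest rise of the 4 small subunit genes. Its signal was 3052 and 2951 in del-cIDR seedlings, 4729 and 4644 in inactive del-cIDR, 1129 and 1207 in FL, 1167 and 1186 in inactive FL, and 1127.5 and 1006 in Col-0. The del-cIDR and inactive del-cIDR libraries lay apart from each other and far above the remaining 6, which sat close together. It was 2.81-fold higher in del-cIDR than in Col-0 (log2 fold change 1.49 ± 0.05, limma adjusted p = 4.52e-30), above 98.2% of all features, and 4.39-fold higher in inactive del-cIDR (2.13 ± 0.05, limma adjusted p = 2.66e-37), above 99.8% of features. In FL the log2 fold change was 0.13 ± 0.05 (limma adjusted p = 0.0266), which turned to −0.71 with median-centring and to −0.33 with centring on well-expressed features. That small FL call was also lost without the second Col-0 library (0.05, adjusted p = 0.5) and without the second FL library (0.08, adjusted p = 0.263).

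The neighbour RBCS2B behaved otherwise in the active line. Its signal was 1067 and 1080 in del-cIDR seedlings, 2504 and 2375 in inactive del-cIDR, 815 and 770.3 in FL, 893 and 941.5 in inactive FL, and 1110 and 1097 in Col-0. Only the inactive del-cIDR libraries were above Col-0, and the FL libraries were the lowest. The inactive del-cIDR line was 2.21-fold above Col-0 (log2 fold change 1.14 ± 0.06, limma adjusted p = 3.03e-23), while del-cIDR was not called different from Col-0 (adjusted p = 0.545). With either centring del-cIDR was called lower than Col-0. FL was lower than Col-0 (−0.47 ± 0.06, limma adjusted p = 1.81e-09), and so was inactive FL (−0.27 ± 0.06, limma adjusted p = 0.000699), both on each of the 3 scales. The inactive FL call ended without a trend in the prior variance (adjusted p = 0.0879) and after division by the m6A spike-in (adjusted p = 0.129).

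RBCS1B had by far the lowest signal per kilobase of the 10 genes, at 70.5 in del-cIDR, 157 in inactive del-cIDR, 86.1 in FL, 98.0 in inactive FL and 94.8 in Col-0. The deposited signal was 151.6 and 151.9 in del-cIDR seedlings, 356 and 320.5 in inactive del-cIDR, 190.2 and 180.6 in FL, 194 and 228 in inactive FL, and 217.5 and 190.8 in Col-0. The active del-cIDR libraries were the lowest of the 10 and the inactive del-cIDR libraries the highest. As deposited, no other of the 10 genes was called lower in del-cIDR than in Col-0 (−0.41 ± 0.12, limma adjusted p = 0.00268), and it was called higher in inactive del-cIDR (0.71 ± 0.12, limma adjusted p = 1.74e-06). Without the first Col-0 library the del-cIDR call was lost (−0.32, adjusted p = 0.058). Summing the 3 adjacent genes, which evens out how shared reads were divided among them but does not restore reads that the counting may have dropped, gave log2 fold changes of 0.83 ± 0.05 in del-cIDR, 1.65 ± 0.05 in inactive del-cIDR and −0.14 ± 0.05 in FL against Col-0 (limma adjusted p = 6.07e-22, 1.83e-35 and 0.00492), and inactive FL was not called (adjusted p = 0.536).

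The make-up of the small subunit signal therefore differed between genotypes. These shares are of deposited signal, not divided by length, so they compare 1 gene across genotypes and not the genes with each other. RBCS1A held 73.6 ± 0.56% of the summed small subunit signal in del-cIDR, a lower 62.3 ± 0.64% in inactive del-cIDR, and between 75.6% and 76.3% on average in FL, inactive FL and Col-0 (SD, n = 2 each). RBCS3B held 18.7 ± 0.56% in del-cIDR, 23.6 ± 0.15% in inactive del-cIDR, 12.9 ± 0.80% in FL, 12.5 ± 0.46% in inactive FL and 10.7 ± 0.65% in Col-0. For RBCS2B the mean shares were 6.7% in del-cIDR, 12.3% in inactive del-cIDR, 8.76% in FL, 9.73% in inactive FL and 11.1% in Col-0. The ratio of RBCS3B to RBCS2B was highest in del-cIDR, at 2.8 ± 0.09, and was 1.92 ± 0.05 in inactive del-cIDR, 1.48 ± 0.13 in FL, 1.28 ± 0.03 in inactive FL and 0.967 ± 0.07 in Col-0. These ratios do not change with the scaling of a library, and all 4 transgenic lines lay above Col-0 by more than the spread between libraries.

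**Figure D3:**
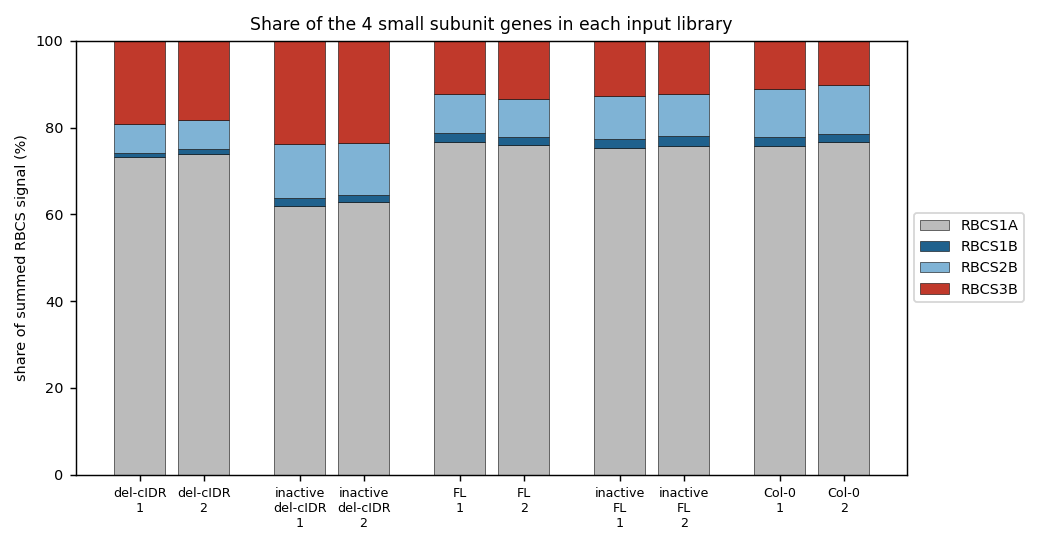
Share of each small subunit gene in the summed deposited signal of the 4 genes (y axis, percent) in each of the 10 input libraries. The RBCS3B share is largest in the inactive del-cIDR libraries (mean 23.6%) and smallest in Col-0 (mean 10.7%), and the 2 libraries of each genotype are close.

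Rubisco activase, encoded by RCA, frees Rubisco active sites of bound sugar phosphates. RCA had 25806 and 26372 in del-cIDR seedlings, 49131 and 49974.5 in inactive del-cIDR, 14375 and 14015 in FL, 14729 and 15263 in inactive FL, and 11400.4 and 11314 in Col-0. No genotype overlapped with another, and all 4 transgenic lines were above Col-0. The rise against Col-0 was 2.30-fold in del-cIDR (log2 fold change 1.20 ± 0.04, limma adjusted p = 4.96e-34), 4.36-fold in inactive del-cIDR (2.12 ± 0.04, adjusted p = 1.58e-45), 1.25-fold in FL (0.32 ± 0.04, adjusted p = 8.01e-11) and 1.32-fold in inactive FL (0.40 ± 0.04, adjusted p = 1.94e-13). In FL the direction turned to −0.52 with median-centring and to −0.14 with centring on well-expressed features, and in inactive FL the value was 0.11 (adjusted p = 0.397) with median-centring. Division by the m6A spike-in also ended both FL calls (adjusted p = 0.159 in FL and 0.621 in inactive FL).

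RCA also moved relative to the small subunits. Its signal over the summed small subunit signal was 1.63 ± 0.01 in del-cIDR, 2.5 ± 0.05 in inactive del-cIDR, 1.57 ± 0.004 in FL, 1.59 ± 0.04 in inactive FL and 1.14 ± 0.02 in Col-0 (SD, n = 2 each). The ratio was therefore higher in all 4 transgenic lines than in Col-0, whatever the scaling of the libraries. Per kilobase of gene span, RCA had the highest signal of the 10 genes in del-cIDR (8853), inactive del-cIDR (16815), FL (4817) and inactive FL (5089), and came after RBCS1A in Col-0 (3854).

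GAPA and GAPB encode the A and B subunits of the chloroplast glyceraldehyde-3-phosphate dehydrogenase, which reduces the phosphorylated product of carbon fixation with NADPH. They differed in the del-cIDR lines. GAPA had 6161.5 and 6146 in del-cIDR seedlings, 6137 and 6264 in inactive del-cIDR, 4323 and 4228 in FL, 3940 and 4261 in inactive FL, and 4483 and 4547.5 in Col-0. The 2 del-cIDR genotypes overlapped and were above the rest. GAPA was 1.36-fold higher in del-cIDR than in Col-0 (log2 fold change 0.45 ± 0.04, limma adjusted p = 6.56e-13) and 1.37-fold higher in inactive del-cIDR (0.46 ± 0.04, adjusted p = 2.99e-13), but the direction in del-cIDR turned to −0.17 with median-centring and the value was 0.01 (adjusted p = 0.92) with centring on well-expressed features. After division by the m6A spike-in neither rise was called (adjusted p = 0.134 for del-cIDR and 0.107 for inactive del-cIDR). Its small decrease in inactive FL (−0.14 ± 0.04, limma adjusted p = 0.0151) was lost without the first Col-0 library, without the second, or without the first inactive FL library (−0.15, −0.13 and −0.08, with adjusted p = 0.0571, 0.129 and 0.156), and when fitted on its own libraries or after division by the unmodified spike-in (adjusted p = 0.06 and 0.201), while both centrings kept it. The genes GAPA and GAPA-2 are close copies, and reads could have been split between them.

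GAPB had 2611 and 2779 in del-cIDR seedlings, 4520.1 and 4653 in inactive del-cIDR, 1753.5 and 1671 in FL, 1612 and 1823 in inactive FL, and 1664 and 1628 in Col-0. Here inactive del-cIDR was clearly above del-cIDR, and the FL lines sat at the level of Col-0 and overlapped with each other. The rise against Col-0 was 1.64-fold in del-cIDR (0.71 ± 0.05, limma adjusted p = 6.94e-17; 0.09 with median-centring, adjusted p = 0.385) and 2.79-fold in inactive del-cIDR (1.47 ± 0.05, adjusted p = 1.31e-30). The ratio of GAPB to GAPA was 0.438 ± 0.02 in del-cIDR, 0.74 ± 0.004 in inactive del-cIDR, 0.4 ± 0.007 in FL, 0.419 ± 0.01 in inactive FL and 0.365 ± 0.009 in Col-0, so the inactive del-cIDR line stood apart.

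FBA2, a chloroplast aldolase that joins triose phosphates to a larger sugar, and SBPASE, the phosphatase of the regeneration steps, rose in both del-cIDR lines. FBA2 had 4720.2 and 4820.0 in del-cIDR seedlings, 6957.5 and 7095 in inactive del-cIDR, 2414 and 2301 in FL, 2251 and 2460 in inactive FL, and 2351 and 2211 in Col-0. Its del-cIDR genotypes were apart from each other and from the remaining libraries, which overlapped. It was 2.09-fold higher in del-cIDR than in Col-0 (log2 fold change 1.06 ± 0.05, limma adjusted p = 3.99e-26) and 3.08-fold higher in inactive del-cIDR (1.62 ± 0.05, adjusted p = 1.31e-34), and it was called in neither FL line (adjusted p = 0.353 in FL and 0.518 in inactive FL).

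The SBPASE signal was 1388 and 1433 in del-cIDR seedlings, 2048 and 2062 in inactive del-cIDR, 903 and 779 in FL, 801 and 863 in inactive FL, and 711 and 748 in Col-0. All transgenic libraries were above both Col-0 libraries, and the FL and inactive FL libraries overlapped. The rise was 1.93-fold in del-cIDR (0.94 ± 0.06, limma adjusted p = 1.91e-18) and 2.82-fold in inactive del-cIDR (1.49 ± 0.06, adjusted p = 6.51e-27). The smaller rises in FL (0.20 ± 0.06, limma adjusted p = 0.005) and inactive FL (0.19 ± 0.06, adjusted p = 0.0313) turned to −0.64 and −0.11 with median-centring, and with centring on well-expressed features to −0.26 in FL and 0.05 in inactive FL (adjusted p = 0.637). The FL call was lost without the first Col-0 library (0.16, adjusted p = 0.0634) or the first FL library (0.09, adjusted p = 0.265), and the inactive FL call without the first or second Col-0 library (0.15 and 0.22, adjusted p = 0.205 and 0.0584) or the second inactive FL library (0.13, adjusted p = 0.243).

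PRK makes the sugar that Rubisco acts on, and its changes were among the smaller ones. PRK had 3528 and 3595 in del-cIDR seedlings, 4155.5 and 4258 in inactive del-cIDR, 2296 and 2147 in FL, 2359 and 2665 in inactive FL, and 2639 and 2567 in Col-0. The order of the means was inactive del-cIDR, del-cIDR, Col-0, inactive FL and FL, with only Col-0 and inactive FL overlapping among neighbours. It was 1.37-fold higher in del-cIDR than in Col-0 (0.45 ± 0.05, limma adjusted p = 5.48e-11), which turned to −0.16 with median-centring and was 0.01 (adjusted p = 0.869) with centring on well-expressed features. After division by the m6A spike-in PRK was not called in del-cIDR (0.30, adjusted p = 0.125). In inactive del-cIDR it was 1.62-fold higher (0.69 ± 0.05, adjusted p = 2e-17), and in FL it was lower (−0.23 ± 0.05, adjusted p = 8.7e-05), a call that ended without a trend in the prior variance (adjusted p = 0.0583) and after division by the m6A spike-in (adjusted p = 0.113).

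The active line was next compared with the inactive line of the same form. These are separate transgenic lines, so activity and line cannot be told apart. In del-cIDR against inactive del-cIDR, 8 of 10 genes were lower in the active line, where 2.76% of all features were called lower and 28.7% higher. The median of the 10 genes was −0.60, against 0.27 over all features. The 2 adjacent genes RBCS2B (−1.18 ± 0.06, limma adjusted p = 2.58e-23) and RBCS1B (−1.12 ± 0.12, adjusted p = 2.53e-11) fell the most, to 0.44 and 0.449 of the inactive level. RCA fell to 0.526 (−0.93 ± 0.04, adjusted p = 3.84e-28) and GAPB to 0.587 (−0.77 ± 0.05, adjusted p = 9.51e-18). RBCS3B (−0.64), FBA2 (−0.56), SBPASE (−0.54) and PRK (−0.24) followed, with limma adjusted p = 2.18e-14, 2.31e-14, 7.39e-10 and 0.000112, and RBCS1A and GAPA were not called (adjusted p = 0.204 and 0.879). With either centring all 10 genes were called lower (6.99% of features with median-centring and 7.81% with the other), and leaving out any single library left the count at 8. The PRK call ended without a trend in the prior variance (adjusted p = 0.105) and after division by the m6A spike-in (adjusted p = 0.29).

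**Figure D4:**
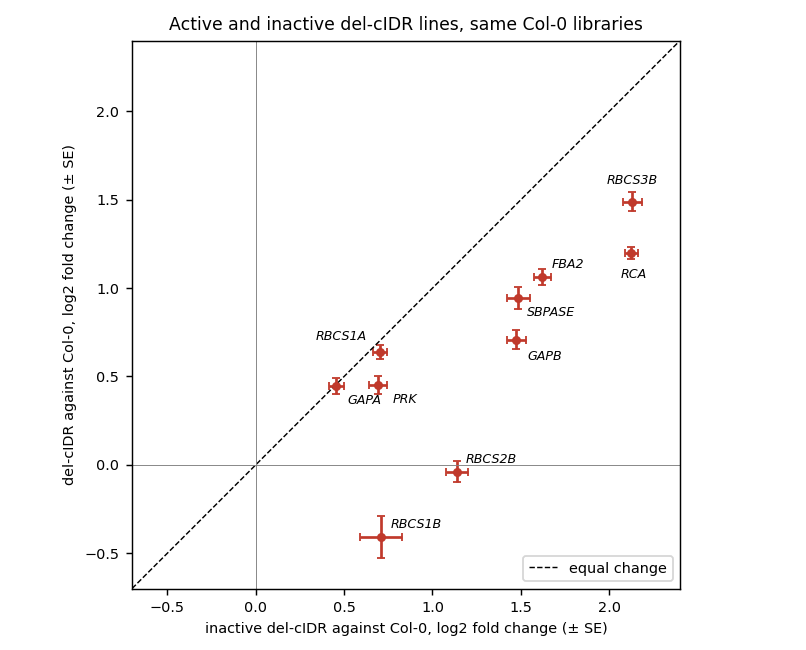
Log2 fold change against Col-0 (± SE) of each gene in del-cIDR (y axis) and in inactive del-cIDR (x axis); the dashed line marks equal change, and both axes use the same Col-0 libraries. GAPA (0.45 and 0.46) and RBCS1A (0.64 and 0.70) lie near the line, and RBCS1B (−0.41 and 0.71) and RBCS2B (−0.04 and 1.14) lie far below it.

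In the full-length pair the same genes stayed close together. FL against inactive FL had 2 genes called lower and none higher, where 0.751% of all features were called lower and 58.1% higher. These were RBCS2B (−0.21 ± 0.06) and PRK (−0.17 ± 0.05), both with limma adjusted p = 0.00336. Both calls were lost without the second FL library (−0.17 and −0.13, adjusted p = 0.0643 and 0.094), the PRK call also without the second inactive FL library (−0.09, adjusted p = 0.125), and both without a trend in the prior variance (adjusted p = 0.0727 and 0.144) and after division by the m6A spike-in (adjusted p = 0.648 and 0.788). With either centring all 10 genes were called lower in FL (25.8% of features with median-centring and 7.74% with the other), and as deposited the median of all features was 0.43 higher in FL than in inactive FL.

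The difference between the 2 comparisons of active with inactive lines was tested as an interaction. It was called for 7 genes, all lower in the del-cIDR pair, where 13.9% of all features were called lower and 6.15% higher. RBCS2B (−0.97 ± 0.08), RBCS1B (−0.94 ± 0.17), RCA (−0.85 ± 0.05), GAPB (−0.76 ± 0.08) and RBCS3B (−0.63 ± 0.08) were called on each of the 3 scales. FBA2 (−0.56) and SBPASE (−0.55) were called as deposited (limma adjusted p = 2.92e-09 and 4.29e-06) and not with median-centring (−0.25 and −0.24, adjusted p = 0.0564 and 0.1). The SBPASE call also ended without a trend in the prior variance (adjusted p = 0.0549). RBCS1A, GAPA and PRK were not called (adjusted p = 0.822, 0.434 and 0.559), and with median-centring RBCS1A was called in the opposite direction (0.29, adjusted p = 0.027). On that scale 5 genes were called lower and 1 higher, with 6.90% and 20.8% of all features, and with centring on well-expressed features the 7 were called lower, with 12.5%. The median interaction over all features was 0.12 with median-centring.

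The active lines without and with the disordered region were compared as del-cIDR against FL. The form of the protein, the line and its place of growth cannot be told apart in this comparison. Here 9 of 10 genes were higher in del-cIDR, where 10.6% of all features were called higher and 20.0% lower, and the median of the 10 genes was 0.71 against −0.14 over all features. RBCS3B was 2.57-fold higher (log2 fold change 1.36 ± 0.05, limma adjusted p = 1.41e-27), FBA2 2.02-fold (1.01 ± 0.05, adjusted p = 8.27e-25), RCA 1.84-fold (0.88 ± 0.04, adjusted p = 3.19e-27) and RBCS1A 1.71-fold (0.77 ± 0.04, adjusted p = 5.43e-23). SBPASE (0.74), PRK (0.68), GAPB (0.65), GAPA (0.52) and RBCS2B (0.43) were called higher too, with limma adjusted p between 1.07e-16 and 4.47e-08, and RBCS1B was not called (adjusted p = 0.068). The same 9 were called higher with either centring (26.4% of features with median-centring and 13.2% with the other), and the RBCS2B call ended after division by the m6A spike-in (adjusted p = 0.151).

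The m6A table holds a deposited ratio per peak in which the methylated spike-in stands at 10.579 for each IP library. The denominator of the ratio is not given in the sources used here. The peak on RBCS3B starts at 15.38 megabases of chromosome 5 in the TAIR10 coordinates of the files and is 227 bases long. How reads that also match RBCS1B or RBCS2B were treated in this peak is not given either, so its ratio may not be of RBCS3B alone. The ratio of the peak was 0.129 and 0.138 in del-cIDR seedlings, 0.172 and 0.435 in inactive del-cIDR, 0.561 and 0.561 in FL, 0.252 and 0.334 in inactive FL, and 3.15 and 2.86 in Col-0. All 8 transgenic libraries were far below both Col-0 libraries, and even in Col-0 the peak was weak, above 3.2% of all peaks. The mean ratio was 22.5-fold lower in del-cIDR, 9.91-fold lower in inactive del-cIDR, 5.36-fold lower in FL and 10.2-fold lower in inactive FL than in Col-0.

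On the log2(ratio + 0.54) scale these falls were −2.39 in del-cIDR, −2.09 in inactive del-cIDR, −1.68 in FL and −2.09 in inactive FL, each ± 0.22 SE (limma adjusted p = 6.14e-26, 6.47e-20, 5.2e-13 and 6.61e-20). The means of the 4 lines are near or below the value added before taking logs, so these sizes depend on it. The background was large: 79.8% of all peaks were called lower than Col-0 in del-cIDR, 24.1% in inactive del-cIDR, 22.7% in FL and 21.8% in inactive FL. With each library centred on its median peak, the fall of the RBCS3B peak was −0.91, −1.18, −0.72 and −1.14 in the same order and was not called (adjusted p = 0.31, 0.138, 0.61 and 0.224), a scale on which at most 3 of 2291 peaks were called in any line against Col-0. Between the transgenic lines the peak was called in none of the comparisons as deposited (adjusted p = 0.53 for del-cIDR against inactive del-cIDR, 0.999 for FL against inactive FL, 0.0864 for del-cIDR against FL and 0.665 for the interaction). Few peaks of any gene were called there, at 0.175%, 0.218%, 0.873% and 0.175% of all peaks in the same order. The missing calls therefore do not show that the lines are alike. Without the first FL library, del-cIDR was called lower than FL (−0.71, adjusted p = 0.0276).

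All 4 lines had a lower RBCS3B peak ratio than Col-0, while the RNA was far above Col-0 only in the del-cIDR lines. With all libraries, the peak was not called different between lines as deposited, so the lines are not ranked by their fall. A link between the ratio and the RNA was not tested. In the FL lines the peak ratio was 0.561 ± 4.13e-05 (FL) and 0.293 ± 0.06 (inactive FL), against 3.0 ± 0.21 in Col-0, while the RNA signal was 1168 ± 54.9 and 1176 ± 13.7, against 1067 ± 85.7 in Col-0 (SD, n = 2 each). In the del-cIDR lines the ratio was 0.134 ± 0.006 and, in inactive del-cIDR, 0.303 ± 0.19, with RNA signals of 3001.5 ± 71.2 and 4686.5 ± 60.2. A ratio of IP to input would contain the RNA level, and whether the deposited ratio does is not stated.

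**Figure D5:**
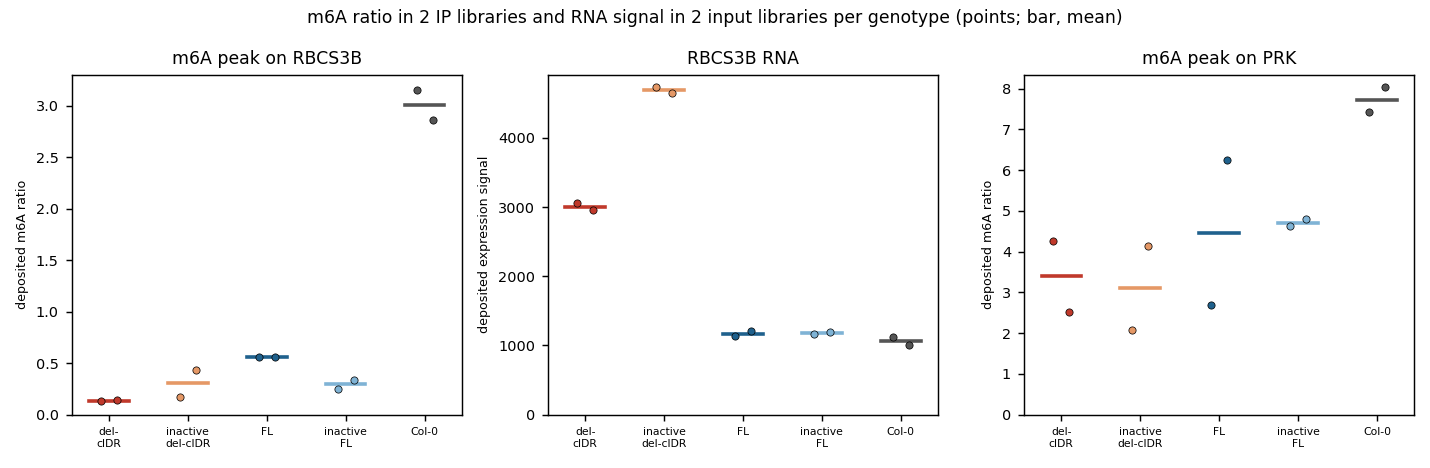
Deposited m6A ratio of the peaks on RBCS3B and PRK in the 2 IP libraries of each genotype, and the RBCS3B expression signal in the 2 input libraries (y axes from 0; points are libraries, bars are means). The RBCS3B ratio runs from 0.129 to 0.561 in the transgenic libraries and is 2.86 and 3.15 in Col-0, while its RNA is 3052 and 2951 in del-cIDR seedlings, 4729 and 4644 in inactive del-cIDR, and between 1006 and 1207 elsewhere.

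The peak on PRK spans chr1:11534318-11534592 in the same coordinates, 275 bases. Its ratio was 4.26 and 2.52 in del-cIDR seedlings, 2.07 and 4.15 in inactive del-cIDR, 2.69 and 6.24 in FL, 4.62 and 4.81 in inactive FL, and 7.42 and 8.05 in Col-0. Col-0 was highest, but the 2 libraries of del-cIDR, inactive del-cIDR and FL lay far apart. None of the comparisons with Col-0 was called (limma adjusted p = 0.0633 in del-cIDR, 0.0958 in inactive del-cIDR, 0.216 in FL and 0.311 in inactive FL). Without either FL library the peak was called lower in del-cIDR (−1.11, adjusted p = 0.0288 for each) and in inactive del-cIDR (−1.24, adjusted p = 0.0383 without the first and 0.0381 without the second), and without the second library of the line itself in FL (−1.36, adjusted p = 0.039) and inactive del-cIDR (−1.66, adjusted p = 0.0399). With median-centring its direction against Col-0 turned to 0.37 in del-cIDR, 0.14 in FL and 0.29 in inactive FL. A further 6 peaks lay on genes of the pathway lists below, and of these 3 were called lower than Col-0 in del-cIDR (CPN60B, RbcX2 and GOX2), where 79.8% of all peaks were, 1 in inactive del-cIDR (24.1%), 0 in FL (22.7%) and 1 in inactive FL (21.8%), the last 2 calls being GOX2; the names were chosen after their values were seen. The peak on the glycolate oxidase gene GOX2 had the lowest mean ratio of the 6 in each genotype and the largest fall in del-cIDR (−1.77, limma adjusted p = 0.000274), a fall that was −0.29 (adjusted p = 0.629) with median-centring.

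Other genes of the pathway were followed in lists of related genes, to be read against the share of all features called in the same comparison with Col-0. As deposited, del-cIDR had 65.5% of features higher and 1.85% lower, inactive del-cIDR 32.4% higher and 7.84% lower, FL 75.5% higher and 1.47% lower, and inactive FL 16.9% higher and 3.12% lower. With median-centring del-cIDR had 8.13% higher and 21.1% lower, inactive del-cIDR 11.2% higher and 24.7% lower, FL 15.7% higher and 38.9% lower, and inactive FL 4.99% higher and 17.8% lower.

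Of 14 further Calvin cycle genes, 11 were called higher in del-cIDR than in Col-0, a count near the background of 65.5%, with a median of 0.43 against 0.56 over all features. In inactive del-cIDR 11 were higher (background 32.4%) and 1 lower (0.51 against 0.31), in FL 2 were higher (background 75.5%) and 5 lower (0.05 against 0.67), and in inactive FL 2 were higher (background 16.9%) and 3 lower (−0.08 against 0.22). FBA1, a second chloroplast aldolase gene, had 2401 and 2306 in del-cIDR seedlings, 4277 and 4350.2 in inactive del-cIDR, 1701 and 1604.5 in FL, 1615 and 1753 in inactive FL, and 1344 and 1404 in Col-0. It showed the order of RCA, with inactive del-cIDR highest and Col-0 lowest. HCEF1, a chloroplast fructose-bisphosphatase gene, was higher than in Col-0 by 0.97 in del-cIDR and by 1.51 in inactive del-cIDR, and GAPA-2, the close copy of GAPA, by 0.51 and 1.33; with median-centring the GAPA-2 value in del-cIDR turned to −0.10 (adjusted p = 0.365). In del-cIDR against inactive del-cIDR, 3 of the 14 were higher (28.7% of all features) and 6 lower (2.76%), with FBA1 at −0.87, GAPA-2 at −0.81 and HCEF1 at −0.54. With median-centring 1 of the 14 was called higher and 7 lower in del-cIDR against Col-0, while 5 were higher and 4 lower in inactive del-cIDR, 0 higher and 13 lower in FL, and 0 higher and 8 lower in inactive FL.

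Among 10 genes for the folding and assembly of Rubisco, 9 were called higher in del-cIDR than in Col-0 (65.5% of all features), 8 in inactive del-cIDR (32.4%), 5 in FL (75.5%, so that the list lies below the background) and 1 in inactive FL (16.9%), and 2 were lower in inactive FL (3.12%). RbcX1, which encodes an assembly chaperone, ran against the order of most of the 10 central genes. Its signal was 337 and 380.1 in del-cIDR seedlings, 187 and 191 in inactive del-cIDR, 167 and 177 in FL, 157 and 172 in inactive FL, and 122 and 104 in Col-0. The active del-cIDR libraries were thus the highest (del-cIDR against inactive del-cIDR 0.90, limma adjusted p = 4.46e-08). CPN60B and Cpn60beta2, genes of the chloroplast chaperonin, were higher than in Col-0 by 0.74 and 0.82 in del-cIDR and by 0.67 and 1.04 in inactive del-cIDR. With median-centring, 1 of the 10 was called higher (RbcX1) and 2 lower in del-cIDR, 6 higher and 2 lower in inactive del-cIDR, 0 higher and 8 lower in FL, and 0 higher and 6 lower in inactive FL, so the direction in FL turned with the scaling.

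Photorespiration salvages the product of the oxygen reaction of Rubisco. Of 12 listed genes 11 were measured, and 8 were called higher and 2 lower in del-cIDR than in Col-0 (65.5% and 1.85% of all features), 9 higher and 2 lower in inactive del-cIDR (32.4% and 7.84%), 1 higher and 7 lower in FL (75.5% and 1.47%), and 3 lower in inactive FL (3.12%). The direction in del-cIDR turned with median-centring, where 0 were called higher and 8 lower (median −0.39); on that scale 4 were higher and 3 lower in inactive del-cIDR, and 11 were lower in FL and 11 in inactive FL. SHM1, a mitochondrial serine hydroxymethyltransferase gene, and GLDP1, a glycine decarboxylase gene, were higher by 0.72 and 0.67 in del-cIDR and by 1.40 and 1.61 in inactive del-cIDR, and lower in FL by 0.24 (log2 fold change −0.24) and 0.32 (−0.32). Their values in del-cIDR were not called with median-centring (0.10 and 0.05, adjusted p = 0.322 and 0.663). AGT, which encodes the peroxisomal serine:glyoxylate aminotransferase, went the other way. It had 11096.5 and 11612 in del-cIDR seedlings, 9025 and 9284 in inactive del-cIDR, 10735 and 10360.0 in FL, 11240 and 11926 in inactive FL, and 14088 and 14031 in Col-0. All transgenic libraries were below Col-0, by −0.31 in del-cIDR, −0.62 in inactive del-cIDR, −0.41 in FL and −0.28 in inactive FL (limma adjusted p = 2.27e-09, 8.09e-20, 2.99e-13 and 9.95e-08), and AGT was called lower in all 4 lines with either centring too.

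Of 5 genes for thioredoxin control of the cycle and for carbonic anhydrase, 4 were called higher in del-cIDR (65.5% of all features), 4 in inactive del-cIDR (32.4%) and 1 in FL (75.5%), with 2 lower in FL (1.47%) and 1 lower in inactive FL (3.12%). With median-centring 2 were higher and 1 lower in del-cIDR, 3 higher and 1 lower in inactive del-cIDR, and 0 higher in the FL lines, with 5 lower in FL and 3 in inactive FL. CA1, the chloroplast carbonic anhydrase gene, had 4151 and 4264.5 in del-cIDR seedlings, 5842 and 5885 in inactive del-cIDR, 1801 and 1820.3 in FL, 2021 and 2304.5 in inactive FL, and 2300 and 2260.3 in Col-0. It rose in both del-cIDR lines (0.88 and 1.36 in inactive del-cIDR) and was lower in FL than in Col-0 (−0.33, limma adjusted p = 1.1e-07). The thioredoxin genes TRXF1 and TRXF2, whose proteins activate cycle enzymes in the light, were higher than in Col-0 by 0.46 and 1.09 in del-cIDR and by 1.45 and 1.43 in inactive del-cIDR, and the TRXF1 value in del-cIDR turned to −0.15 (adjusted p = 0.485) with median-centring. The plastid-encoded feature ATCG00490 was higher than in Col-0 by 0.48 in del-cIDR and by 0.16 in inactive del-cIDR, both below the medians of all features (0.56 and 0.31), and with median-centring both turned, to −0.14 and −0.21, and were not called (adjusted p = 0.668 and 0.453). It was lower in FL than in Col-0 (−0.48, limma adjusted p = 1.63e-13), also with either centring. ATCG00490 was listed as the Rubisco large subunit. It was higher in del-cIDR than in inactive del-cIDR (0.31, limma adjusted p = 6.33e-08), near the median of all features (0.27), and not called with median-centring (0.08). It was lower in FL than in inactive FL (−0.40, adjusted p = 1.3e-10). Its interaction was called higher (0.72, adjusted p = 1.09e-13), also with median-centring (1.03), opposite to the 7 genes called above.

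Of 9 regulators of light responses and chloroplast development, 4 were called higher and 1 lower in del-cIDR than in Col-0 (65.5% and 1.85% of all features), 5 and 1 in inactive del-cIDR (32.4% and 7.84%), and 4 higher in FL (75.5%) and 2 higher in inactive FL (16.9%), so the shares called higher in del-cIDR and FL were below the background. GPRI1 (also called GLK1), a transcription factor of chloroplast development, had 762 and 678 in del-cIDR seedlings, 921 and 888 in inactive del-cIDR, 561 and 561 in FL, 575 and 605.5 in inactive FL, and 524 and 541 in Col-0. It was called higher in del-cIDR (0.43, limma adjusted p = 2.17e-06) and in inactive del-cIDR (0.76, adjusted p = 7.34e-13) and in neither FL line, and with median-centring its del-cIDR value turned to −0.19 (adjusted p = 0.104). PIF4 and PIL6, phytochrome-interacting factors, were called higher in all 4 lines, by 0.55 and 0.31 in del-cIDR seedlings, 0.41 and 0.41 in inactive del-cIDR, 0.31 and 0.53 in FL, and 0.24 and 0.31 in inactive FL. With median-centring neither was called higher in any line, and both turned in del-cIDR (−0.06 and −0.30) and in FL (−0.53 and −0.31). On that scale 7 of the 9 were called lower in del-cIDR (21.1% of all features), 2 higher and 4 lower in inactive del-cIDR (11.2% and 24.7%), 8 lower in FL (38.9%) and 3 lower in inactive FL (17.8%).

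Markers of other tissues of the seedling were followed in the same way. Of 7 root markers, 5 were called higher and 1 lower in del-cIDR than in Col-0 (65.5% and 1.85% of all features). In inactive del-cIDR 2 were called higher (32.4%), and in FL 5 (75.5%). The counts called higher were near the background. With median-centring 1 was higher and 2 lower in del-cIDR, 2 higher and 2 lower in inactive del-cIDR, 1 higher and 2 lower in FL, and 3 lower in inactive FL. Their summed signal was 9266 to 9798 in del-cIDR, 12681 to 12939 in inactive del-cIDR, 8902 to 8945 in FL, 7982 to 8360.0 in inactive FL and 7702 to 7765 in Col-0, nearly all of it from PYK10. Without PYK10 the sums were 265.3 to 300.2, 224.5 to 231, 346.3 to 380.8, 170.2 to 224.8 and 210.7 to 211.7 in the same order. The 4 markers of shoot epidermis and guard cells summed to 5241 to 5265 in del-cIDR, 4018 to 4081 in inactive del-cIDR, 3788 to 4139 in FL, 3801 to 4072 in inactive FL and 4254 to 4318 in Col-0, with 3 called higher in del-cIDR (65.5%), 1 lower in inactive del-cIDR (7.84%), 2 lower in FL (1.47%) and 1 lower in inactive FL (3.12%). With median-centring 2 of them were called lower in del-cIDR, 4 in inactive del-cIDR, 4 in FL and 3 in inactive FL, and 0 higher. The 6 seed storage genes summed to 1001 to 1032, 669.1 to 719.1, 593 to 602.4, 523.9 to 580.8 and 616.7 to 647.1. Among the root markers PYK10, a root beta-glucosidase gene, was higher than in Col-0 by 0.30 in del-cIDR, by 0.74 in inactive del-cIDR and by 0.19 in FL, which turned with median-centring to −0.32 in del-cIDR and to −0.66 in FL. The iron transporter gene IRT1 was higher by 1.61, 1.52 and 0.86 in these lines, and the nitrate transporter gene NRT2:1 by 1.03 in del-cIDR and 1.48 in FL. With median-centring IRT1 in FL (0.01) and NRT2:1 in del-cIDR (0.41) were not called (adjusted p = 0.972 and 0.245). In Col-0 IRT1 was 5.94 and 4.36, below the 6.94 added before taking logs, and NRT2:1 was 16.0 and 11.7. The sizes of both therefore depend on that value. The root marker called lower in del-cIDR was PHT1;1 (−0.45, limma adjusted p = 0.0314), a name added after the values were seen. The epidermal regulator ATML1 and the guard cell factor MYB60 were higher in del-cIDR by 0.44 and 0.36, which turned with median-centring to −0.17 and −0.26, and FMA, a regulator of guard cell formation, was lower in inactive del-cIDR (−0.64). Of the seed storage genes 5 were called higher in del-cIDR (65.5% of all features), 1 in inactive del-cIDR (32.4%) and 3 in FL (75.5%), and 1 was lower in FL (1.47%) and 1 in inactive FL (3.12%). With median-centring 0 of them were called in del-cIDR, 1 lower in inactive del-cIDR, 2 higher and 2 lower in FL, and 2 lower in inactive FL. CRU2, SESA2 and SESA3 were higher by 0.82, 0.90 and 0.86 in del-cIDR and by 1.19, 1.57 and 1.44 in FL. Their Col-0 means were low (5.68, 11.2 and 20.2), so these sizes depend on the value added before taking logs. CRA1, added after the values were seen, had the most signal of the 6. It was higher in del-cIDR (0.66) and lower in FL (−0.42, limma adjusted p = 3.09e-05). RNA of the 132 plastid features averaged 11629732 in del-cIDR, 12352801 in inactive del-cIDR, 7333797 in FL, 8828977 in inactive FL and 10391299 in Col-0. The part of tissue make-up and of plastid RNA in the differences above was not tested.

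The mean profile of the 10 genes was compared with 15297 other features of at least median level, as the root mean square difference of centred log2 values over the 10 input libraries. The 6 nearest were AT5G38520 (0.0597), the plastocyanin gene DRT112 (0.0607), PSBP-1 of photosystem II (0.08), the leaf ferredoxin-NADP reductase gene FNR1 (0.0836), GUN5 of chlorophyll synthesis (0.0906) and the plastid ATP synthase gene ATPD (0.092). DRT112 had 3481 and 3685 in del-cIDR seedlings, 4935 and 5061 in inactive del-cIDR, 2089 and 1981 in FL, 2215 and 2254 in inactive FL, and 2075 and 2143 in Col-0. Of the 10 genes themselves, GAPB lay nearest to their common profile (0.0803) and SBPASE next (0.11), while RBCS1B (0.416) and RBCS3B (0.383) lay farthest. The likeness describes these 10 libraries only.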

How the data were processed

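MeRIP-seq libraries of chromatin-associated RNA (20 libraries, 5 genotypes, 2 IP and 2 input each) were grouped by the genotype and library type in the labels, and 0 columns belonged to no sample. Per the submitters' processing notes the build was TAIR10 and the tools included bedtools, featureCounts, fastp, HISAT2, MACS2, Picard and SAMtools, with no version or setting given. The authors deposited the expression table as a normalised signal per feature (no value of 0), and the near-equal ERCC sums are what its values show of the scaling. The deposited m6A table holds a ratio per peak, scaled to the m6A spike-in (37 values of 0); its denominator, and whether replicates were pooled for peak calling, are not given in the sources used here. Neither table holds counts, so depth is unknown and counting error could not be estimated.

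Spike-ins were set aside. Tests ran on log2(value + c), with c set to the 5th percentile of values above 0 (6.94 for expression, 0.54 for m6A). A value of c or more in at least 2 libraries was required, which left all 30613 features and 2291 peaks. Group means of the 5 genotypes were fitted per table to its 10 libraries in limma 3.58.1 (R 4.3.3), with a trended prior variance, and 8 contrasts were tested, two-sided, with Benjamini-Hochberg adjustment over the table at 0.05. Peaks were assigned to the gene of a TAIR10.1 gene table that alone covered at least 50% of the peak, and gene spans for values per kilobase came from the same table (26417 features matched). Replicate numbers do not mark a shared batch in the labels and were not used to pair libraries.

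The 10 genes, the pathway and marker lists and the tests were chosen with earlier results of these data known. Named are the 10 genes, their peaks, the 3 genes of each list with the smallest p over the mean of the 4 lines against Col-0, and the 6 features of nearest profile; exceptions are stated. Alternatives were another pseudocount c (1), filters, centrings, spike-in scalings, the variance trend, the libraries fitted, summing the adjacent small subunit genes, a replicate block and leaving out each library. The fits were tested on simulated data. Figures were drawn with matplotlib 3.10.9.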

Additional observations from a re-analysis of the deposited data

Results flagged for a closer look

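The effect of ALKBH5 activity on expression (active line minus inactive line) differed between the del-cIDR pair and the FL pair for 7 of the 10 genes, by a limma interaction term adjusted over all features. The difference on the log2 scale was −0.97 for RBCS2B (adjusted p = 1.13e-13), −0.94 for RBCS1B (1.85e-05), −0.85 for RCA (1.13e-19), −0.76 for GAPB (6.23e-12), −0.63 for RBCS3B (4.84e-09), −0.56 for FBA2 (2.92e-09) and −0.55 for SBPASE (4.29e-06). Of all features, 13.9% were called lower and 6.15% higher. With median-centring FBA2 and SBPASE were not called (adjusted p = 0.0564 and 0.1). SBPASE was also not called without a trend in the prior variance (adjusted p = 0.0549). For each of the 7 genes the mean signal was lower in del-cIDR than in inactive del-cIDR. Each pair is a pair of transgenic lines, so activity and line cannot be told apart.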

How the results depend on the processing

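The counts of called genes in inactive del-cIDR against Col-0, del-cIDR against inactive del-cIDR, del-cIDR against FL and the interaction stayed within 1.5 times the reported count under every alternative run, and del-cIDR against Col-0 did too. These counts take both directions together. With median-centring del-cIDR against Col-0 had 4 genes called higher and 2 lower, in place of 8 and 1. The interaction had 1 higher and 5 lower on that scale, in place of 0 and 7. The FL counts did not stay within 1.5 times. Shares of all features under the alternatives were computed only for the centrings, so the other counts below have no background. FL against Col-0 (6 called) had 10 with median-centring, 10 with centring on well-expressed features, 2 without a trend in the prior variance and 1 after division by the m6A spike-in. Inactive FL against Col-0 (4 called) had 1 without the trend, 2 when fitted on its own libraries and 0 after division by the m6A spike-in. FL against inactive FL (2 called) had 10 with either centring, 0 without the trend, 0 after division by the m6A spike-in and 1 with the 3 adjacent small subunit genes summed. Of the peaks (1 called in each line against Col-0), 0 were called with median-centring in any line, and 0 among peaks of above-median level, where the RBCS3B peak was not tested. A fit on the contrast's own libraries gave 2 in del-cIDR and 2 in inactive FL, and no trend gave 2 in del-cIDR. Leaving out each library gave 0 to 3 called genes for FL against inactive FL (0 without the second FL library), 2 to 4 for inactive FL against Col-0 (2 without the second Col-0 library), 1 to 2 peaks for del-cIDR, inactive del-cIDR and FL against Col-0, and 0 to 1 peaks for del-cIDR against FL. Directions that turned with median-centring were −0.71 for RBCS3B, −0.52 for RCA and −0.64 for SBPASE in FL against Col-0, −0.11 for SBPASE in inactive FL, and −0.17 for GAPA and −0.16 for PRK in del-cIDR; centring on well-expressed features gave −0.33, −0.14 and −0.26 for the FL values. The peaks turned with median-centring to 0.14, 0.29 and 0.37 for PRK in FL, inactive FL and del-cIDR against Col-0, to 0.22 for PRK in del-cIDR against FL, and to 0.27 for RBCS3B in del-cIDR against inactive del-cIDR. With a library left out, the uncalled PRK peak ran from −0.70 to 0.37 in FL against inactive FL, −0.29 to 0.55 in del-cIDR against inactive del-cIDR, −0.82 to 0.25 in del-cIDR against FL and −0.24 to 0.83 for the interaction. The cause was not tested.

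The correlation of deviations from the group means between libraries of the same number ran from −0.043 to 0.105 over 10 pairs of groups for expression, where 1 of the 10 was over 0.1, and from −0.226 to 0.351 for m6A, where 6 of 10 were. The rule used asked for every pair of groups to be over 0.1, which neither table met, so the numbers were not taken to pair the libraries, although for m6A the check does not show them to be unrelated. A fit with the replicate number as a block called 3 genes in place of 2 for FL against inactive FL and changed no other count of called genes or peaks. With 2 libraries a group and unknown depth, small changes such as those of the FL lines are the least certain.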

Other observations

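The share of the 10 genes in the summed signal of all nuclear genes was 0.277 ± 0.006% in del-cIDR, 0.487 ± 0.004% in inactive del-cIDR, 0.143% in FL, 0.163 ± 0.009% in inactive FL and 0.157 ± 0.007% in Col-0 (SD, n = 2 each). The nuclear gene sum itself averaged 21917841 in del-cIDR, 19179190 in inactive del-cIDR, 24204494.5 in FL, 22039328 in inactive FL and 21083172.5 in Col-0, so the share in FL was slightly below Col-0 although the summed signal of the 10 genes was not. The 4 small subunit genes made up 0.0731 ± 0.002% of it in del-cIDR, 0.103 ± 0.0007% in inactive del-cIDR, 0.0374 ± 0.0003% in FL, 0.0428 ± 0.0025% in inactive FL and 0.0473 ± 0.0024% in Col-0.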
